A study of Mus musculus with 6 samples.

Results

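The NRF2 targets and antioxidant enzymes examined here are 38 genes, taken by symbol from a list that covers NRF2 and its partners, glutathione, thioredoxin, peroxide and superoxide removal, NADPH supply, metallothioneins and target enzymes. The rule used symbols alone. All 38 were present among the 49315 genes of the count table, and all 38 were among the 15847 genes that passed a filter on low counts and were tested. Poly(A) RNA was sequenced from the gastrocnemius, a calf muscle, of male C57BL6J mice injected in that muscle at 5 months of age and harvested 5 months later. The AAV9-HSA-CAAHR group (replicates 31, 34 and 36) received an adeno-associated virus of serotype 9 coding for a constitutively active aryl hydrocarbon receptor (CAAHR), a mouse AHR whose ligand-binding domain is deleted. The AAV9-HSA-GFP group (replicates 42, 43 and 46) received the same serotype coding for a green fluorescent protein. Both transgenes were driven by HSA, a promoter of human skeletal actin that works in mature muscle fibres and not in the other cells of the tissue. Both groups thus carried virus, and muscle without virus was not analysed here. The question was how the antioxidant programme differed between muscle with AHR switched on in its fibres and muscle with a marker protein.

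NRF2, encoded by Nfe2l2, is a transcription factor that KEAP1 marks for degradation in the cytosol. When oxidants or electrophiles modify cysteines of KEAP1, NRF2 enters the nucleus, pairs with a small MAF protein such as MAFG and binds antioxidant response elements, which BACH1 otherwise represses. Its targets build and recycle glutathione, reduce thioredoxin, repair peroxiredoxins and supply NADPH, the electron source of both systems, and in muscle these enzymes handle the peroxide that mitochondria and contraction give rise to. AHR binds other elements, with the core letters GCGTG, and Nqo1 is a known target of both factors.

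The libraries held from 43432994 to 58825752 counts. Levels are in CPM, counts relative to the total of a library, after TMM scaling (trimmed mean of M values). The gene delivered, Ahr, was at 9.97 to 22.8 CPM in AAV9-HSA-CAAHR muscles against 1.87 to 2.55 CPM with AAV9-HSA-GFP, and its target Cyp1a1 at 1231 to 1680 and 5.85 to 7.74 CPM. Skeletal muscle markers were abundant in every library, with the 7 markers summing to 124777 to 163402 CPM and 194070 to 197710 CPM, and 3 of the 7 (Acta1, Ckm and Tnnt3) passed the test as lower in AAV9-HSA-CAAHR. The others did not pass and were mixed, with log2 fold changes of 1.03 for Mb, 0.03 for Ttn, -0.48 for Des and -0.31 for Myh4. In bulk muscle, fewer cells of a type and less RNA per cell cannot be told apart. Nothing in the labels beyond the titles says that the libraries of a group came from separate animals, so p-values measure only the spread between these libraries.

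The bases before the transcription start are shown for 5 of the members that passed the test, so that the leading member (Nqo1), the gene of NRF2, a peroxiredoxin repair enzyme (Srxn1) and the metallothionein pair can be set beside their values below. Each run is read 5′ to 3′ towards the start, from RefSeq on GRCm38.p6. Capitals mark the antioxidant response element core TGACNNNGC and the AHR element core GCGTG, on either strand.
Nqo1 (chr8:107403206-107403455, minus strand): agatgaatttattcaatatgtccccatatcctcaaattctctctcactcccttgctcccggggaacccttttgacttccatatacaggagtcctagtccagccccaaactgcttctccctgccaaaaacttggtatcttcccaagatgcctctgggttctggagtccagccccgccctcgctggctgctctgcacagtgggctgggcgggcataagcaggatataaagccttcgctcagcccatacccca
Nfe2l2 (chr2:75704664-75704913, minus strand): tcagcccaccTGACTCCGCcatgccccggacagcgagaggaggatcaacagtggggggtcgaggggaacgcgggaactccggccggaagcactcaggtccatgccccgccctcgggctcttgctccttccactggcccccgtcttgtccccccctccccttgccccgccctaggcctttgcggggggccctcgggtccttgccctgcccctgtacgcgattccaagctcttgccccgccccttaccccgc
Srxn1 (chr2:152105274-152105523, plus strand): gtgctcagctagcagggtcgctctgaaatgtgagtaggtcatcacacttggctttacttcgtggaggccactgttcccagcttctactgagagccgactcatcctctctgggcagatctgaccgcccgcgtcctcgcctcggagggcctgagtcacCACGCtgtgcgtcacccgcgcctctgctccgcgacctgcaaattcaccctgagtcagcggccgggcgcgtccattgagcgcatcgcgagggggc
Mt2 (chr8:94172368-94172617, plus strand): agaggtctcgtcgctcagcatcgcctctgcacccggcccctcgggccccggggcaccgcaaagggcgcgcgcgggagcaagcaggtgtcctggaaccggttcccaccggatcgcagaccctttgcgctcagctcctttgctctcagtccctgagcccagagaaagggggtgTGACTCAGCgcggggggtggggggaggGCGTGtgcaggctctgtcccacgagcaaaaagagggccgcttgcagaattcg
Mt1 (chr8:94178839-94179088, plus strand): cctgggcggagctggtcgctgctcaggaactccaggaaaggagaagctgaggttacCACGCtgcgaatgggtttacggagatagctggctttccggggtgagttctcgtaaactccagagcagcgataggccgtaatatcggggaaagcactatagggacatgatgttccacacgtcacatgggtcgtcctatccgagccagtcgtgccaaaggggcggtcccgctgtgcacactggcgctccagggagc
The search covered 250 bases before to 50 after each start. RefSeq held such a window for 32 of the 38 members. Gclc, Gsr, Prdx6, Sod3, Abcc1 and Xdh had none. TGACNNNGC was in the windows of 11 of the 32 members (34.4%), against 12.4% of all 32851 windows and 14% of the 27025 genes they belong to. GCGTG was in those of 21 of 32 (65.6%), against 32.4% of windows and 35.2% of genes, and the longer form TNGCGTG, which contains it, was in 1 of 32 (Pgd, 3.12%), against 5.07% and 5.84%. These shares are a description, since promoters also differ in base composition. Among the 8 members that passed the test and had a window, 3 held TGACNNNGC, 4 held GCGTG and 3 (Nqo1, Txnrd2 and Gpx3) held neither. In Nfe2l2 the antioxidant core TGACTCCGC lay at -240 to -232 from the start, and in Mt2 TGACTCAGC lay at -79 to -71. In Srxn1 the antioxidant core lay after the start, at 29 to 37, and is not in the run shown. No match says only that these letters are not in this window.

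Of the 38 members, 9 (23.7%) differed between the groups with an adjusted p under 0.05 (quasi-likelihood test of edgeR, Benjamini-Hochberg adjustment over every tested gene, called edgeR adjusted p from here), against 7.60% of all tested genes. The 3 that rose in AAV9-HSA-CAAHR muscles were Nqo1, Srxn1 and Nfe2l2. The 6 that fell were Mt1, Mt2, Abcc1, Gpx3, Tkt and Txnrd2. These are 7.89% of members against 3.04% of all genes for higher transcripts, and 15.8% against 4.57% for lower ones. Nqo1, Mt1 and Mt2 changed over 2-fold as well, which is 7.89% of members against 3.48% of all genes. The libraries of the groups did not overlap for 17 members (44.7%), 8 higher and 9 lower, against 29.9% of all genes. At an unadjusted p under 0.05 there were 18 members (47.4%), 9 of which were not called, against 23.9% of all tested genes. The direction of the members was mixed. Their median log2 fold change was 0.07 against 0.01 for all genes, with 23 above 0 and 15 below, and the median size of the change was 0.28 against 0.21. With library size as the only scaling, 7 of 11 called members were higher (63.6%) in place of 3 of 9 (33.3%), against 59.3% and 39.9% of all called genes. The count of called members was 5 without CAAHR replicate 36, where 3.28% of all tested genes were called, 5 without GFP replicate 46 (3.76%) and 3 with a covariate for slow fibre markers (2.75%).

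**Figure D1:**
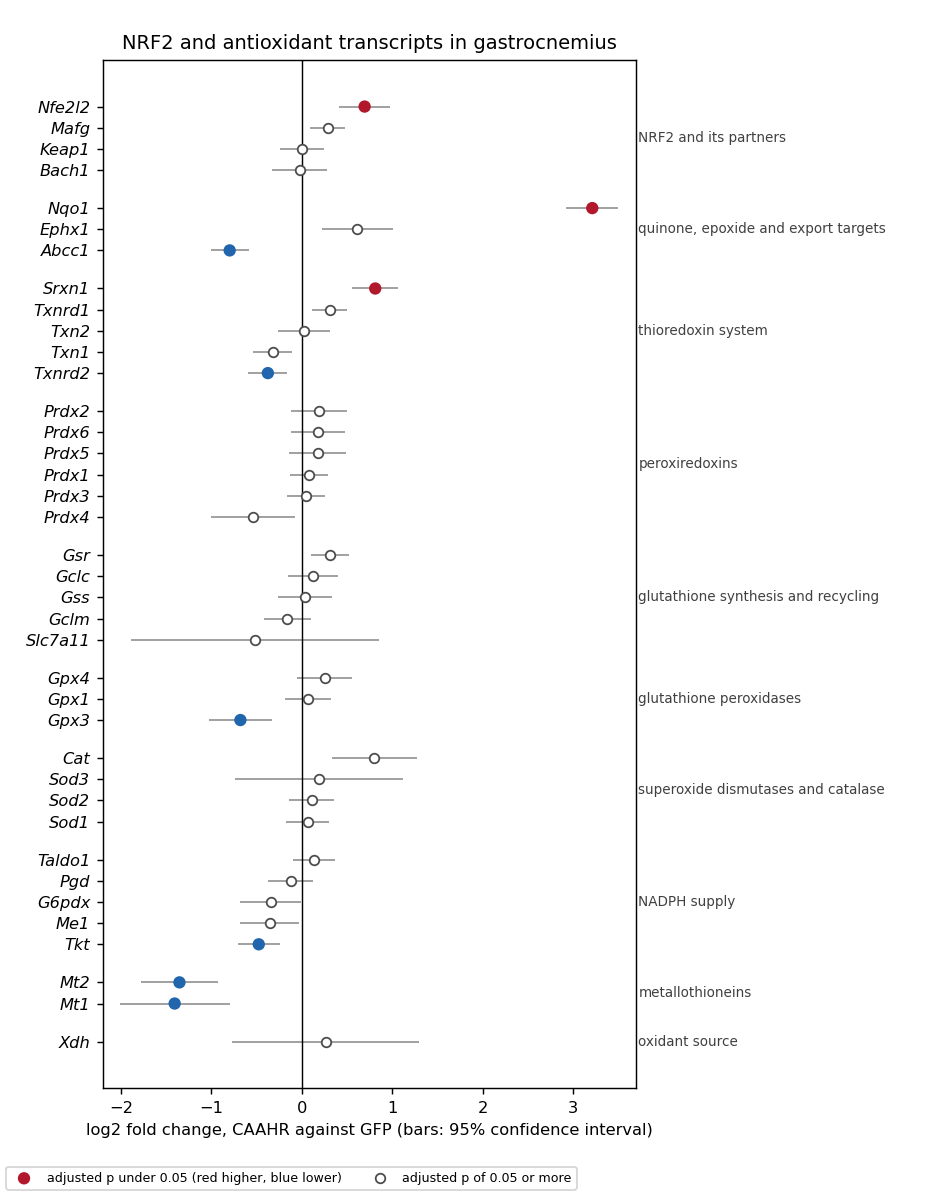
Log2 fold change of each of the 38 members, AAV9-HSA-CAAHR against AAV9-HSA-GFP, grouped by role, with 95% confidence intervals from the edgeR fit. Filled points are the 9 members with an adjusted p under 0.05. Nqo1 at 3.21 stands far to the right of the rest, Mt1 and Mt2 lie furthest to the left at -1.41 and -1.35, and most open points lie within 0.5 of 0.

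Among NRF2 and its partners, the transcript of NRF2 rose and those of its inhibitors KEAP1 and BACH1 did not pass the test. Nfe2l2 (ENSMUSG00000015839, chromosome 2, 75675513 to 75704641, GRCm38) was at 54.4, 57.6 and 59.9 CPM in AAV9-HSA-CAAHR replicates 31, 34 and 36. It was at 37.5, 40.0 and 28.8 CPM in AAV9-HSA-GFP replicates 42, 43 and 46. The lowest AAV9-HSA-CAAHR library was above the highest AAV9-HSA-GFP library. The means of 57.3 ± 2.76 and 35.4 ± 5.88 CPM (SD, n = 3 each) gave a log2 fold change of 0.69 ± 0.12 (SE, edgeR adjusted p 0.0107), which is 1.62-fold. Keap1, the adaptor that sends NRF2 for degradation, was at 73.2, 87.3 and 94.5 CPM against 84.0, 85.0 and 86.6 CPM, so its AAV9-HSA-CAAHR libraries lay on both sides of the others. Its log2 fold change was 0.00 with a 95% interval from -0.25 to 0.24. Bach1, the repressor of the same elements, had a log2 fold change of -0.02 with an interval from -0.33 to 0.28. Mafg, a small MAF partner, was at 93.7, 101 and 97.6 CPM against 79.1, 78.5 and 81.7 CPM. Its groups did not overlap, and its log2 fold change of 0.29 ± 0.09 missed the threshold (edgeR adjusted p 0.0728). As raw counts, which need no scaling, there were 0.743, 0.659 and 0.634 Nfe2l2 reads per Keap1 read in AAV9-HSA-CAAHR muscles, against 0.447, 0.470 and 0.333 with AAV9-HSA-GFP. Read ratios between members were chosen after their values were seen and are given as a description.

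Of 13 other NRF2 regulators, 11 were tested, and 3 rose and 0 fell (27.3% called, against 7.60% of all tested genes). They had 4 of 11 at an unadjusted p under 0.05, a larger share than the 23.9% of all tested genes. Their median log2 fold change was 0.09. Maff, another small MAF gene, was at 22.8, 23.5 and 19.3 CPM against 6.34, 12.5 and 7.06 CPM, a log2 fold change of 1.34 ± 0.25 (edgeR adjusted p 0.0193). Mafk, a further small MAF gene, was at 33.2 to 34.05 CPM against 24.6 to 26.3 CPM (0.40 ± 0.08, edgeR adjusted p 0.0200). Nfe2l1, which codes for the NRF2 relative NRF1 and directs proteasome genes, was at 1016, 1160 and 1277 CPM against 796.5, 660.0 and 808.4 CPM (0.61 ± 0.13, edgeR adjusted p 0.0251). The groups did not overlap for these 3 genes. They were picked as called, so the 29.9% of all tested genes without overlap is not a like comparison. Btrc and Ep300 were not called and did not overlap either, and the other tested regulators overlapped. Cul3, the ubiquitin ligase scaffold that KEAP1 recruits, was at -0.10 on the log2 scale with an interval from -0.39 to 0.18.

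Nqo1 had the largest change of the members. Nqo1 (ENSMUSG00000003849, chromosome 8, 107388225 to 107403206), which codes for a quinone reductase that spends NADPH or NADH on the full reduction of quinones, was at 194, 255 and 212 CPM in AAV9-HSA-CAAHR replicates 31, 34 and 36. In AAV9-HSA-GFP replicates 42, 43 and 46 it was at 24.0, 22.2 and 25.1 CPM. Every AAV9-HSA-CAAHR library was far above every AAV9-HSA-GFP library, and replicate 34 was the highest. The log2 fold change of 3.21 ± 0.13 (95% interval 2.92 to 3.50, edgeR adjusted p 1.86e-06) is 9.26-fold. Per kilobase of exon, which allows levels to be compared between genes, Nqo1 stood at 142 ± 20.0 CPM per kb against 15.3 ± 0.951. That placed it first of the 38 members with AAV9-HSA-CAAHR and number 18 with AAV9-HSA-GFP. Gpx4, in place 2 and 1, was at 133 ± 14.9 and 111 ± 16.8 CPM per kb. The levels of Nqo1 and Gpx4 in AAV9-HSA-CAAHR muscles did not differ beyond their spread.

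The other target enzymes went different ways. Abcc1 (ENSMUSG00000023088, chromosome 16, 14361558 to 14475737), which codes for an exporter of glutathione conjugates, was at 28.3, 31.1 and 28.2 CPM in AAV9-HSA-CAAHR muscles and 52.9, 46.5 and 52.8 CPM in AAV9-HSA-GFP muscles. The groups lay well apart. The log2 fold change was -0.80 ± 0.09 (edgeR adjusted p 0.00145), or 1.74-fold lower. Ephx1, the microsomal epoxide hydrolase gene, was at 29.0, 18.4 and 28.2 CPM against 14.7, 16.7 and 18.1 CPM. Replicate 34 lay close to the AAV9-HSA-GFP libraries, and the log2 fold change of 0.61 ± 0.17 missed the threshold (edgeR adjusted p 0.0670). Without replicate 34 it was 0.79 (edgeR adjusted p 0.00256), and with each of the other 5 libraries left out in turn it was 0.49 to 0.68 (edgeR adjusted p 0.132 to 0.208). DESeq2 called it (DESeq2 adjusted p 0.0130).

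**Figure D2:**
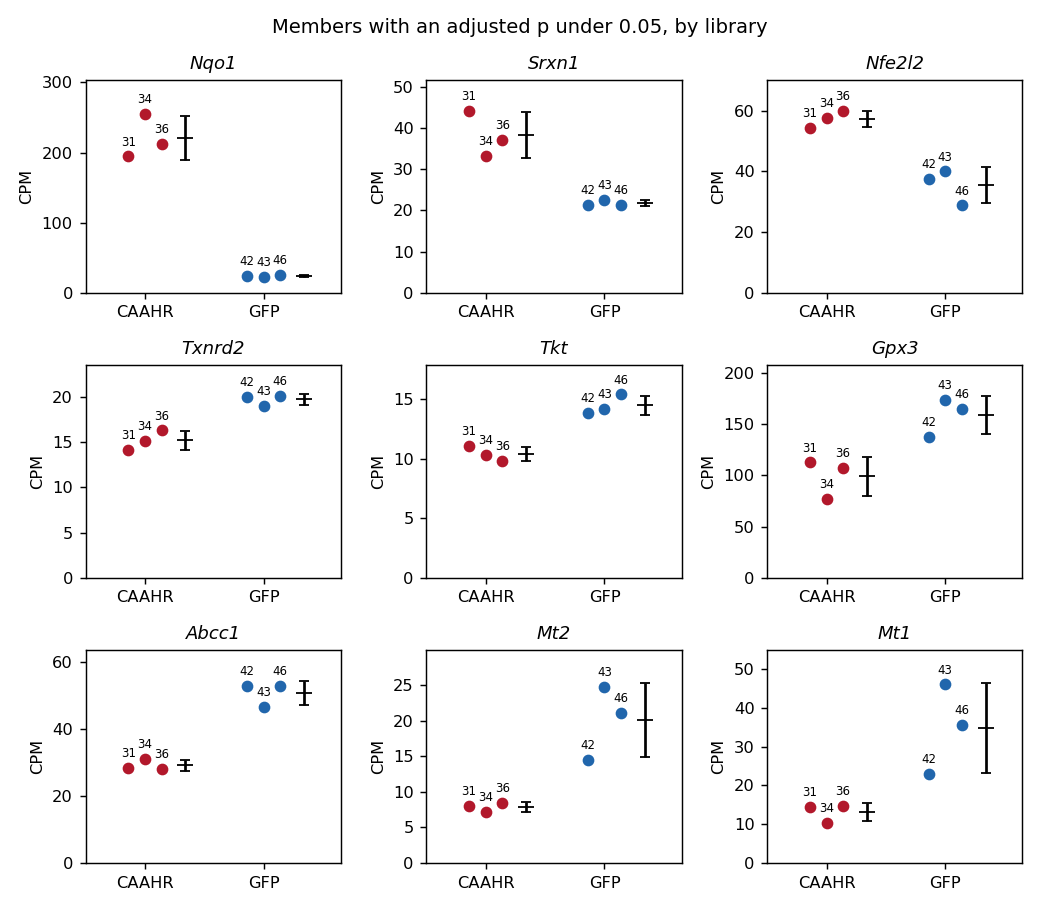
TMM-scaled CPM of the 9 members with an adjusted p under 0.05, in the 3 AAV9-HSA-CAAHR (red) and 3 AAV9-HSA-GFP (blue) libraries, each point marked with its replicate number, with the mean and SD at its side. Each axis starts at 0 and is set for 1 gene. In each of the 9 panels the groups do not overlap, and the AAV9-HSA-GFP libraries of Mt1 spread from 23.0 to 46.1 CPM.

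Of 24 other NRF2 target genes, 23 were tested, and 4 rose and 1 fell (21.7% called, against 7.60% of all tested genes). They had 9 of 23 at an unadjusted p under 0.05, a larger share than the 23.9% of all tested genes. Their median log2 fold change was 0.01. Mgst1, a membrane-bound glutathione transferase gene, was at 77.9, 54.6 and 77.6 CPM against 27.6, 30.8 and 32.9 CPM (log2 fold change 1.20 ± 0.14, edgeR adjusted p 0.00179). Gstp1, a cytosolic glutathione transferase gene with near-identical copies beside it, so that its unique reads are uncertain, had a log2 fold change of 0.42 ± 0.10 (edgeR adjusted p 0.0299). The exporter genes Abcc5, at 0.77 ± 0.11 (edgeR adjusted p 0.00449), and Abcc4, at 0.59 ± 0.11 (edgeR adjusted p 0.0144), rose where their relative Abcc1 fell. Ugdh, which codes for the enzyme that makes UDP-glucuronic acid, was at 6.94, 5.97 and 6.32 CPM against 15.6, 16.0 and 12.2 CPM and fell (-1.19 ± 0.13, edgeR adjusted p 0.00127). Hmox1, the haem oxygenase often used as a reporter of NRF2, was at 4.47, 4.67 and 4.67 CPM against 5.97, 6.78 and 5.68 CPM. Its libraries were lower without overlap, but its log2 fold change of -0.41 ± 0.13 did not pass (edgeR adjusted p 0.0918). Fth1 and Sqstm1, for ferritin heavy chain and the KEAP1-binding adaptor p62, were both at -0.05.

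In the thioredoxin system 1 member rose, 1 fell and 3 did not pass by edgeR. Srxn1 (ENSMUSG00000032802, chromosome 2, 152105516 to 152111376), which codes for sulfiredoxin, the enzyme that restores over-oxidised peroxiredoxins, was at 44.3, 33.3 and 37.2 CPM in AAV9-HSA-CAAHR muscles and 21.4, 22.6 and 21.4 CPM in AAV9-HSA-GFP muscles. All its AAV9-HSA-CAAHR libraries were the higher ones. Its log2 fold change was 0.81 ± 0.11 (edgeR adjusted p 0.00358), or 1.75-fold. Txnrd2 (ENSMUSG00000075704, chromosome 16, 18426384 to 18479073), the mitochondrial thioredoxin reductase gene, was at 14.1, 15.2 and 16.3 CPM against 20.0, 19.0 and 20.1 CPM. Its groups did not overlap, and its log2 fold change of -0.38 ± 0.10 was close to the threshold (edgeR adjusted p 0.0463). Txnrd1, the cytosolic reductase gene, was at 113, 113 and 118 CPM against 95, 92.4 and 90.4 CPM. The groups were again apart, in the other direction, and the log2 fold change of 0.31 ± 0.09 missed the threshold (edgeR adjusted p 0.0604) but passed with DESeq2 (adjusted p 0.0273) and limma-voom (adjusted p 0.0419). There were 8.01, 7.43 and 7.22 Txnrd1 reads per Txnrd2 read in AAV9-HSA-CAAHR muscles, against 4.74, 4.86 and 4.50 with AAV9-HSA-GFP. Txn1, the cytosolic thioredoxin gene, had a log2 fold change of -0.32 ± 0.10 (edgeR adjusted p 0.0756), and Txn2, its mitochondrial counterpart, one of 0.02 with an interval from -0.26 to 0.31. The call for Txnrd2 was lost whichever of the 6 libraries was left out (edgeR adjusted p from 0.0616 without CAAHR replicate 34 to 0.118 without GFP replicate 42).

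None of the 6 peroxiredoxin members, thiol peroxidases of which sulfiredoxin repairs the typical 2-Cys forms (Prdx1 to Prdx4), passed the test by edgeR, with 1 at an unadjusted p under 0.05 (Prdx4) and 0 called with DESeq2. Prdx4, the peroxiredoxin of the secretory pathway, was at 1.80, 1.40 and 1.94 CPM against 2.38, 2.21 and 2.85 CPM, with a log2 fold change of -0.54 and an interval from -1.0 to -0.07 (edgeR adjusted p 0.150). The other 5 ranged from 0.04 (Prdx3, mitochondrial) to 0.19 (Prdx2). Per kilobase, Prdx3 was the highest of the 6 in both groups, at 98.2 ± 5.48 and 95.3 ± 4.70 CPM per kb, and Prdx4 the lowest, at 0.813 ± 0.132 and 1.18 ± 0.157. Prdx1 codes for a cytosolic substrate of sulfiredoxin, and there were 0.335, 0.278 and 0.323 Srxn1 reads per Prdx1 read against 0.180, 0.196 and 0.189.

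No member of glutathione synthesis and recycling passed the test by edgeR or by DESeq2, with 1 of 5 at an unadjusted p under 0.05 (Gsr). Gclc and Gclm, the catalytic and modifier subunits of the rate-limiting ligase, had log2 fold changes of 0.12 (interval -0.15 to 0.40) and -0.16 (-0.42 to 0.10). Gclc was at 18.2, 20.7 and 16.1 CPM against 17.6, 17.9 and 15.0 CPM, and Gclm at 17.8, 18.3 and 14.5 CPM against 18.1, 20.5 and 17.9 CPM. The groups overlapped for both subunits. Gsr, the glutathione reductase gene, was at 35.5, 38.7 and 37.2 CPM against 31.1, 27.3 and 31.5 CPM. Its groups did not overlap, and its log2 fold change of 0.31 ± 0.09 missed the threshold (edgeR adjusted p 0.0756). The authors name Gsr among the transcripts that rose with CAAHR. Gss, for glutathione synthetase, was at 0.04 (-0.26 to 0.34) on the log2 scale. Slc7a11, the cystine transporter gene, had 3 to 23 counts per library and the widest interval of the members, -1.89 to 0.86, so a change of that size was not detectable at this depth. Of 35 other glutathione and thioredoxin genes, 33 were tested, and 1 rose and 0 fell (3.03% called, against 7.60% of all tested genes). They had 11 of 33 at an unadjusted p under 0.05, a larger share than the 23.9% of all tested genes. Their median log2 fold change was -0.02. The gene that rose was Oplah, for the oxoprolinase that returns glutamate to glutathione synthesis, at 83.5, 75.4 and 89.8 CPM against 46.8, 46.7 and 49.8 CPM (0.79 ± 0.10, edgeR adjusted p 0.00163).

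**Figure D3:**
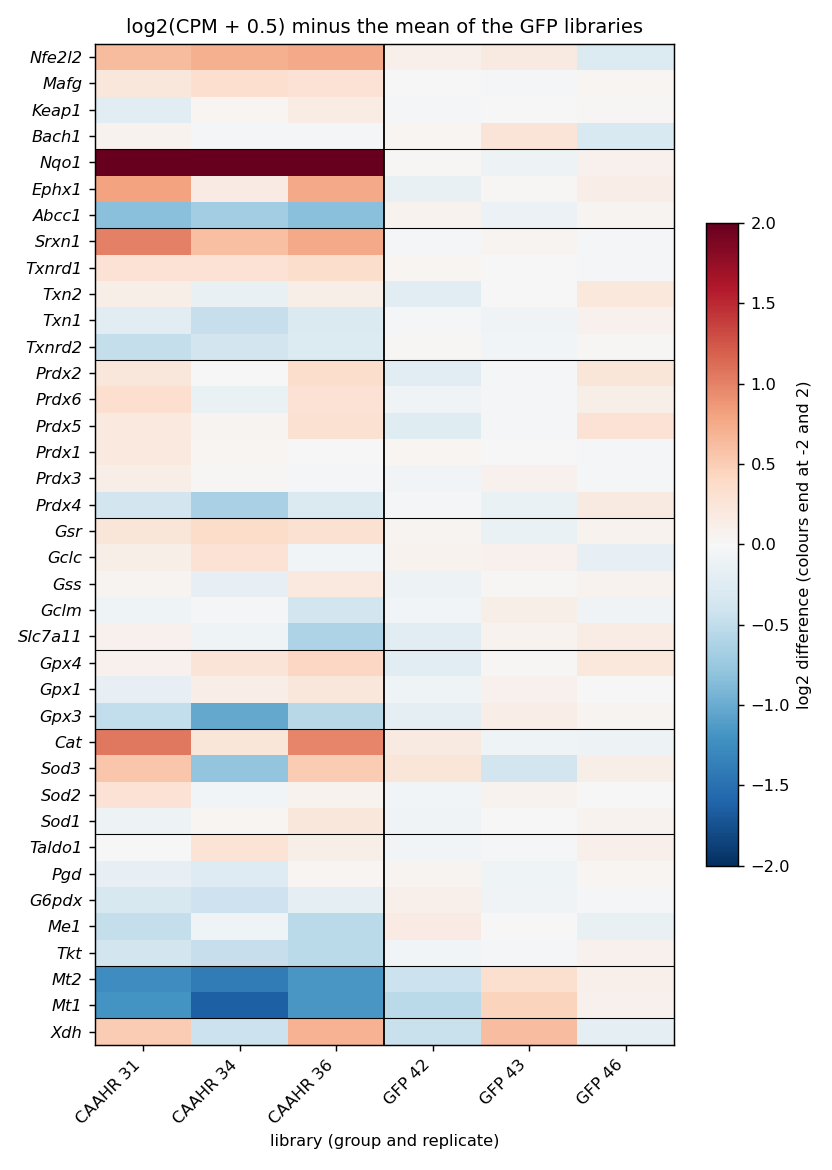
Each cell is log2(CPM + 0.5) of a member in a library minus the mean over the 3 AAV9-HSA-GFP libraries, with roles separated by lines and groups by the vertical line. Red is higher and blue lower, and colours end at -2 and 2, which Nqo1 exceeds. Cat and Ephx1 are paler in CAAHR replicate 34 than in replicates 31 and 36. Most rows of the peroxiredoxins and of glutathione synthesis and recycling are pale, with Prdx4 at -0.64 in CAAHR replicate 34 and Slc7a11 at -0.62 in CAAHR replicate 36.

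Among the glutathione peroxidases, which spend glutathione on peroxides, 1 member fell and 2 did not pass. Gpx3 (ENSMUSG00000018339, chromosome 11, 54902453 to 54910377), the gene of the secreted plasma form, was at 113, 77.3 and 107 CPM in AAV9-HSA-CAAHR muscles and 138, 174 and 165 CPM in AAV9-HSA-GFP muscles. Replicate 34 was the lowest of the 6 libraries, and the groups did not overlap. The log2 fold change was -0.68 ± 0.15 (edgeR adjusted p 0.0289), or 1.60-fold lower. Gpx1, the cytosolic form, was at 0.07 (interval -0.18 to 0.32). Gpx4, which reduces lipid hydroperoxides in membranes, was at 0.25 (-0.05 to 0.56). There were 0.555, 0.337 and 0.422 Gpx3 reads per Gpx4 read in AAV9-HSA-CAAHR muscles against 0.849, 0.899 and 0.747. The call for Gpx3 was lost without CAAHR replicate 36 (edgeR adjusted p 0.0700), GFP replicate 43 (0.0947) or GFP replicate 46 (0.103), and with library size only (0.0547).

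The superoxide dismutases and catalase held no called member by edgeR, with 1 of 4 at an unadjusted p under 0.05 (Cat) and 1 called with DESeq2 (Cat). Sod1, the cytosolic dismutase gene, was at 0.06 (interval -0.18 to 0.30), Sod2, the mitochondrial one, at 0.11 (-0.14 to 0.36) and Sod3, the extracellular one, at 0.19 (-0.74 to 1.12) on the log2 scale. Cat, which codes for peroxisomal catalase, was at 138, 78.7 and 130 CPM against 75.2, 62.2 and 61.9 CPM. Its AAV9-HSA-CAAHR libraries were all higher, with replicate 34 just above the highest AAV9-HSA-GFP library. The log2 fold change was 0.80 ± 0.20 (edgeR adjusted p 0.0531), near that of Srxn1 in size but with a wider error. Without replicate 34 it was 1.01 (edgeR adjusted p 0.000577), with each of the other 5 libraries left out in turn it was 0.65 to 0.90 (edgeR adjusted p 0.0845 to 0.172), and with DESeq2 it was 0.80 (DESeq2 adjusted p 0.000726).

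Within the AAV9-HSA-CAAHR group, Cat and Ephx1 were lowest in the library with the lowest slow fibre markers. The 9 slow fibre markers summed to 2818, 661.5 and 2546 CPM in AAV9-HSA-CAAHR replicates 31, 34 and 36 and to 234.9, 343.4 and 474.2 CPM in AAV9-HSA-GFP replicates 42, 43 and 46. Across those 3 AAV9-HSA-GFP libraries Ephx1 followed the order of the markers and Cat did not, being highest in replicate 42. None of these 9 markers was called by edgeR, 8 had an unadjusted p under 0.05, and all were above 0 on the log2 scale. Replicate 34 was the lowest AAV9-HSA-CAAHR library for 20 of the 38 members, replicate 31 for 10 and replicate 36 for 8. With the mean log2 CPM of the markers as a covariate, Cat was at 0.13 (edgeR adjusted p 0.865) and Ephx1 at -0.14 (edgeR adjusted p 0.724), Srxn1 at 0.51 (edgeR adjusted p 0.184) and Nfe2l2 at 0.85 (edgeR adjusted p 0.0749). Abcc1 was at -0.67 (edgeR adjusted p 0.0724). Nqo1 at 3.50, Gpx3 at -1.28 and Mt2 at -1.75 passed in that fit as well, and Mt1 at -2.10 missed the threshold (edgeR adjusted p 0.0516). The log2 fold changes of Mt1 and Gpx3 were thus further from 0 than without the covariate, where they were -1.41 and -0.68. The covariate itself was at 5.64 to 7.71 in AAV9-HSA-CAAHR and 4.09 to 5.18 in AAV9-HSA-GFP libraries, so fibre content and vector cannot be told apart.

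Among the members listed under NADPH supply, 1 fell and 4 did not pass, and the 1 that fell codes for an enzyme that forms no NADPH itself. Tkt (ENSMUSG00000021957, chromosome 14, 30548359 to 30574720), the transketolase gene of the non-oxidative pentose phosphate pathway, was at 11.1, 10.4 and 9.83 CPM in AAV9-HSA-CAAHR muscles and 13.9, 14.2 and 15.4 CPM in AAV9-HSA-GFP muscles. The groups did not overlap. Its log2 fold change was -0.48 ± 0.10 (edgeR adjusted p 0.0247), or 1.39-fold lower. G6pdx, for the enzyme that opens the oxidative branch, was at 3.22, 2.99 and 3.58 CPM against 4.46, 3.92 and 4.06 CPM, also without overlap. Its log2 fold change was -0.34 with an interval from -0.68 to -0.01 (edgeR adjusted p 0.203). Of its exon bases, 13.6% also lie in Ikbkg on the other strand, which had 711 to 1291 counts per library. Whether the libraries were stranded was not stated, so the value of G6pdx is uncertain to that extent. Pgd, for the next dehydrogenase of that branch, was at -0.13 (-0.37 to 0.12) and Taldo1, for transaldolase, at 0.13 (-0.09 to 0.36). Me1, the cytosolic malic enzyme gene, was at 244, 320.1 and 233 CPM against 378.5, 336 and 307 CPM, with overlap, and at -0.36 ± 0.14 (edgeR adjusted p 0.165). Per kilobase Me1 stood at 69.0 ± 12.3 and 88.5 ± 9.40 CPM per kb, and Taldo1 at 33.2 ± 3.31 and 30.2 ± 1.86. G6pdx, Pgd and Tkt were far lower, the highest of them Pgd at 2.5 ± 0.284 and 2.73 ± 0.156. The call for Tkt was lost without CAAHR replicate 36 (edgeR adjusted p 0.0986) or GFP replicate 42 (0.0506), 43 (0.0715) or 46 (0.0859).

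A further list for NADPH supply held 17 genes, all tested, and 0 rose and 1 fell (5.88% called, against 7.60% of all tested genes). It had 7 of 17 at an unadjusted p under 0.05, a larger share than the 23.9% of all tested genes. Its median log2 fold change was -0.16. Some of its genes, such as Rpe, Rpia and Nadk, code for enzymes that do not form NADPH themselves. Aldh1l1, a folate enzyme gene, was at 5.12, 4.64 and 5.43 CPM against 8.12, 7.67 and 10.1 CPM and fell (-0.77 ± 0.14, edgeR adjusted p 0.0136). The mitochondrial enzyme genes Idh2, at 463, 189 and 470.4 CPM in AAV9-HSA-CAAHR muscles, and Nnt, at 58.4, 26.5 and 55.9 CPM, did not pass, with log2 fold changes of 1.38 ± 0.47 and 0.96 ± 0.36 (edgeR adjusted p 0.160 and 0.178). C57BL6J mice carry a known deletion in Nnt. In both genes replicate 34, the lowest AAV9-HSA-CAAHR library for slow fibre markers, lay within the AAV9-HSA-GFP range.

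The metallothioneins, small proteins that bind zinc and copper and quench radicals, both fell. Mt1 (ENSMUSG00000031765, chromosome 8, 94179082 to 94180327) was at 14.4, 10.4 and 14.6 CPM in AAV9-HSA-CAAHR muscles and 23.0, 46.1 and 35.5 CPM in AAV9-HSA-GFP muscles. Mt2 (ENSMUSG00000031762, chromosome 8, 94172664 to 94173568), its neighbour on the same strand, was at 8.03, 7.12 and 8.45 CPM against 14.5, 24.8 and 21.1 CPM. In both genes replicate 34 was the lowest library and GFP replicate 43 the highest. The log2 fold changes were -1.41 ± 0.26 for Mt1 (edgeR adjusted p 0.0221) and -1.35 ± 0.19 for Mt2 (edgeR adjusted p 0.00391), which are 2.65-fold and 2.56-fold lower. There were 1.66 ± 0.175 Mt1 reads per Mt2 read in AAV9-HSA-CAAHR muscles, against 1.71 ± 0.138 with AAV9-HSA-GFP. Of the exon bases of Mt2, 73.5% also lie in Gm45774, an antisense transcript with 55 to 101 counts in AAV9-HSA-CAAHR and 235 to 373 in AAV9-HSA-GFP libraries, and reads were counted by strand only if the libraries were stranded, which was not stated, so the value of Mt2 is uncertain to that extent. The call for Mt1 was lost without CAAHR replicate 31 (edgeR adjusted p 0.0681), CAAHR replicate 36 (0.0780) or GFP replicate 46 (0.0858).

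Summed markers of several immune cell types were also lower in the libraries where the 6 members fell. The 9 B and plasma cell markers summed to 19.9, 18.0 and 11.2 CPM in AAV9-HSA-CAAHR muscles and to 145, 580.4 and 309 CPM in AAV9-HSA-GFP replicates 42, 43 and 46, with 5 of 9 called lower. The order of the AAV9-HSA-GFP libraries, with 42 lowest and 43 highest, was that of Mt1, Mt2 and Gpx3. It was not that of Abcc1 and Txnrd2, lowest in replicate 43, or of Tkt, highest in replicate 46. Among AAV9-HSA-CAAHR libraries these markers were lowest in replicate 36, and Mt1, Mt2 and Gpx3 in replicate 34. The adipocyte and Schwann cell sums were highest in GFP replicate 42 and lowest in 43, as Abcc1 was. These orders were compared after the values were seen. Neutrophil markers summed to 2.38 to 3.32 against 7.17 to 17.4 CPM, the highest being replicate 46, with 4 of 5 tested markers lower of 11 listed and Elane at 0 in all libraries. T and NK cell markers summed to 1.17 to 1.75 against 3.0 to 10.5 CPM (2 of 4 tested lower), and adipocyte markers to 86.5 to 139 against 109 to 231 CPM (3 of 7 called lower, with overlapping sums). Macrophage markers summed to 27.6 to 46.7 against 54.7 to 119 CPM, with 0 of 10 called by edgeR and 8 at an unadjusted p under 0.05. Of the endothelial, fibroblast and Schwann cell markers none was called by edgeR, with 1, 0 and 2 at an unadjusted p under 0.05. The authors attribute lower immune transcripts to a local immune response in muscle given the GFP virus. By quantitative PCR, the immune genes they selected were not lower in AAV9-HSA-CAAHR muscle than in muscle without virus. No such comparison was made here for the members, and the part of these cells in the lower members was not tested.

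Xdh, for xanthine oxidoreductase, is the member that can produce oxidants. It was at 35.6, 18.4 and 40.8 CPM against 18.3, 38.8 and 21.9 CPM. The groups overlapped throughout, and the log2 fold change of 0.26 had an interval from -0.77 to 1.30, wide enough to hold a change of over 2-fold upwards.

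**Figure D4:**
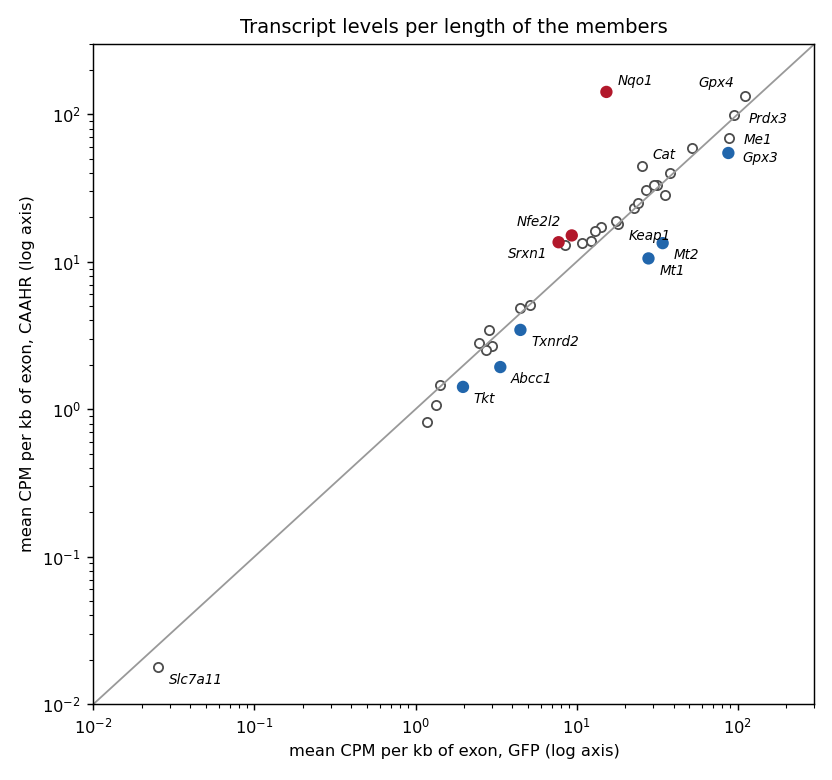
Mean CPM per kilobase of annotated exon of each member in AAV9-HSA-GFP (horizontal) and AAV9-HSA-CAAHR muscles (vertical), both on log axes. The line marks equal levels, and called members are in colour (red higher, blue lower). Most members lie on the line. Nqo1 moves from 15.3 to 142, into the range of Gpx4 and Prdx3, and Slc7a11 is the lowest at 0.0251 and 0.0178.

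The members spanned a wide range of levels, and those called lay between 1.97 (Tkt) and 87.6 (Gpx3) CPM per kb in AAV9-HSA-GFP muscles. In AAV9-HSA-GFP muscles the highest per kilobase were Gpx4 at 111 ± 16.8, Prdx3 at 95.3 ± 4.70, Me1 at 88.5 ± 9.40 and Gpx3 at 87.6 ± 10.3 CPM per kb. No neighbours in that order differed beyond their spread. Slc7a11 was the lowest at 0.0251 ± 0.00773. In AAV9-HSA-CAAHR muscles Gpx3 was in place 6 with 54.7 ± 10.5 CPM per kb, down from place 4, Mt2 in place 23, down from 8, and Mt1 in place 25, down from 11.

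**Figure D5:**
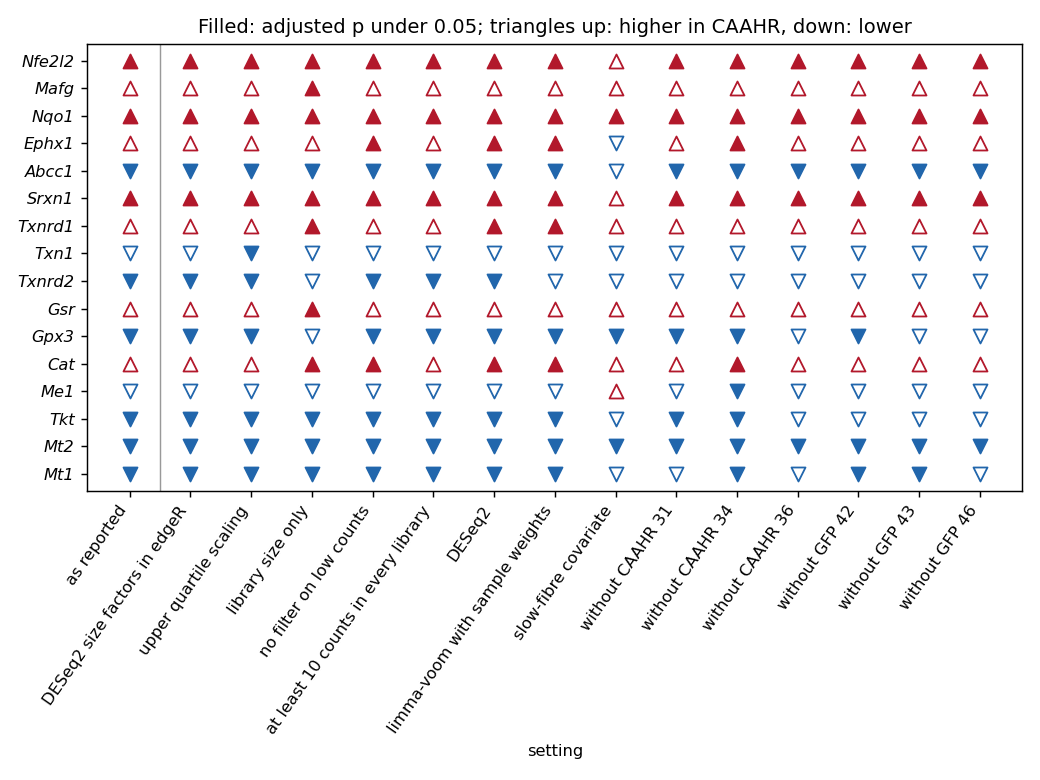
Calls of the 16 members that passed in at least 1 of the 15 settings. Filled triangles have an adjusted p under 0.05, triangles pointing up are higher in AAV9-HSA-CAAHR muscles and triangles pointing down lower. Nqo1 and Mt2 are filled throughout, Nfe2l2, Srxn1 and Abcc1 are open only with the slow-fibre covariate, and Txnrd2 is open in every setting that leaves out a library.

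The 9 calls did not rest on the same footing. Nqo1 and Mt2 passed in 14 of 14 alternative settings. Nfe2l2, Srxn1 and Abcc1 passed in 13 of 14, including all 6 that left out a library. Gpx3 and Mt1 passed in 10, Tkt in 9 and Txnrd2 in 5. Among the members not called, Cat passed in 5 of the 14, Ephx1 in 4, Txnrd1 in 3, and Gsr, Mafg, Txn1 and Me1 in 1 each. The other 22 members passed in no setting run.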

How the data were processed

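Gastrocnemius RNA in 6 libraries (3 AAV9-HSA-CAAHR, 3 AAV9-HSA-GFP, grouped by title) was sequenced as paired ends. The authors trimmed reads with Trimmomatic 0.36, aligned them to GRCm38 with STAR 2.5.2b and deposited whole-number counts per gene from featureCounts, unnormalised, with replicates separate. Reads with several alignments were not counted, and counting used strand only for stranded preparations, and whether these were stranded was not given. The counts were fitted in R 4.3.3 with edgeR 4.0.16 (filterByExpr, TMM scaling, robust quasi-likelihood test). Benjamini-Hochberg adjustment ran across the 15847 genes tested, and an adjusted p under 0.05 was a call. SEs were derived from the F statistic. The scripts were tested on simulated data. Exon lengths, the union of all annotated exons of a gene, and positions came from GENCODE M21. Alternatives were 3 scalings, 2 filters, DESeq2 1.42.0 (used by the authors), limma 3.58.1 voom, a slow-fibre covariate and leaving out each library. The members and lists were chosen with earlier results of these data known. Named were all called members, up to 3 others per role and at most 8 called genes per other list. Gss, Slc7a11 and the remaining members, and Cul3, Hmox1, Fth1, Sqstm1, Idh2 and Nnt, were named outside that rule, after their values were seen.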

Additional observations from a re-analysis of the deposited data

How the results depend on the processing

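No paired analysis was possible because no replicate number occurs in both groups. Of 9 called members, none changed direction in any of the 14 alternatives, and 25 of 126 checks lost the call. Over all members, 454 of 531 checks left direction and call as they were, 25 lost a call, 16 gained one and 36 reversed, the last all among members not called. Members called were 12 with DESeq2 (6 higher, 6 lower), 11 with limma-voom (6 and 5), 11 without a filter (5 and 6), 10 with upper quartile scaling (3 and 7), 3 with the slow-fibre covariate and 5 to 11 with a library left out (11 without CAAHR replicate 34). Of all tested genes, limma-voom called 9.22%, the fit without a filter 8.62%, upper quartile scaling 8.51% and library size only 9.31%, against 7.60% as reported. The covariate fit called 2.75%, and leaving out a library 3.28% to 10.7% (10.7% without CAAHR replicate 34). No such share was computed for DESeq2. Members called over 2-fold were 7.89% as reported, against 3.48% of all tested genes. With a library left out they were 2 to 4, and no share of all tested genes was computed for these fits. All genes called were 1205 as reported, 2470 without a filter, 1923 with DESeq2, 436 with the covariate and 530 to 1727 with a library left out. Upper quartile scaling and library size only moved the median of all genes by -0.07 and 0.08 on the log2 scale. Slc7a11 was not tested with at least 10 counts in every library.

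Reversed log2 fold changes, with library size only, were 0.0775 for Keap1 and 0.0597 for Bach1, without a filter 0.0112 for Keap1 and with limma-voom 0.0145 for Keap1. With upper quartile scaling they were -0.0356 for Gss, -0.0506 for Txn2, -0.00271 for Gpx1, -0.0278 for Prdx3 and -0.0104 for Sod1. With the covariate they were 0.0507 for Keap1, 0.0383 for Bach1, 0.15 for Me1, -0.33 for Gss, -0.38 for Txn2, -0.26 for Prdx2, -0.0071 for Prdx3, -0.20 for Prdx5, -0.34 for Prdx6, -0.0133 for Sod1, -0.15 for Sod2, -1.18 for Sod3, -0.14 for Ephx1 and -0.94 for Xdh. With a library left out, ranges that crossed 0 were -0.0921 to 0.0882 for Keap1, -0.0638 to 0.13 for Gss, -0.0735 to 0.14 for Txn2, -0.0174 to 0.17 for Gpx1, -0.00646 to 0.0855 for Prdx3, -0.0333 to 0.13 for Sod1, -0.0328 to 0.51 for Sod3 and -0.17 to 0.12 for Bach1. The cause was not tested. Member counts ran from 3 (Slc7a11) to 18288 (Me1) per library, and the smallest called change was 1.30-fold (Txnrd2).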
